A study of Mus musculus with 3 samples.

Results

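Isolated narrow H3K4me3 peaks are stretches of less than 1000 bp in the H3K4me3 peak list of mouse ovary that have no other H3K4me3 peak within 10000 bp. They were chosen by their deposited width and by the positions of the peaks in the same list, on chromosomes 1 to 19 without chromosome 15. Of the 9929 H3K4me3 peaks listed, 9149 lay on these 18 chromosomes, 8849 of them were narrower than 1000 bp, and 4126 met the rule. These 4126 peaks were compared with the other 4723 narrow peaks on the same chromosomes, which have a neighbour within 10000 bp.

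The tissue was whole ovary of wild type C57BL/6 J mice at 8 weeks of age in all libraries. The labels give no treatment, although the title of the BNC1 sample carries the word "treated". The BNC1 library was made to map where basonuclin 1, a zinc finger protein, sits on ovarian chromatin. The series comprised 1 ChIP-seq library made with an antibody against H3K4me3, 1 made with an antibody against BNC1 and 1 of input DNA sequenced without an antibody, and peak lists of the first 2 were analysed. With 1 library per antibody there is no replicate, so the intervals below cover counting error within a library only, and no test between conditions was possible. Whether ovaries of several animals were pooled is not given in the sources used here, and the ovary mixes oocytes, granulosa, theca and stromal cells, whose parts in a peak cannot be told apart.

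H3K4me3 is histone H3 carrying a methylated lysine and is best known from the start sites of active or poised genes, above all those with CpG-rich promoters. At a strongly transcribed promoter the mark usually lies on nucleosomes on both sides of the start site, so that a caller can report several neighbouring peaks or a wide one. Low or short stretches of the mark also occur at weak promoters and at some enhancers. BNC1 is a transcription factor of germ cells and of stratified epithelia.

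Coordinates refer to the mouse genome build mm9. Peaks are given by position without gene names, because the gene tables at hand follow another build. Depth is known only as the sequenced fragments (tags) that fall inside peaks, 617686 for H3K4me3 and 45704 for BNC1. The isolated narrow peaks held 196588 of the 497555 H3K4me3 tags listed on the 18 chromosomes, or 39.5%. Total library depths are not known.

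Narrow peaks fell into a closely spaced population and a widely spaced one. The distance to the nearest H3K4me3 peak had a first maximum of 546 peaks between 398 and 631 bp, a minimum of 188 peaks between 2512 and 3981 bp, and a second maximum of 635 peaks between 63096 and 100000 bp. The limit of 10000 bp therefore lay on the rising flank of the second population, and part of that population, the 486 narrow peaks (10.3% of the other narrow peaks) with a neighbour at 5000 to 10000 bp, fell outside the rule. The median distance was 56864 bp for isolated peaks (interquartile range 25725 to 126021 bp) and 334 bp for the other narrow peaks (110 to 1138 bp). Of the other narrow peaks, 1095 (23.2%) had a neighbour at no more than 100 bp.

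**Figure D1:**
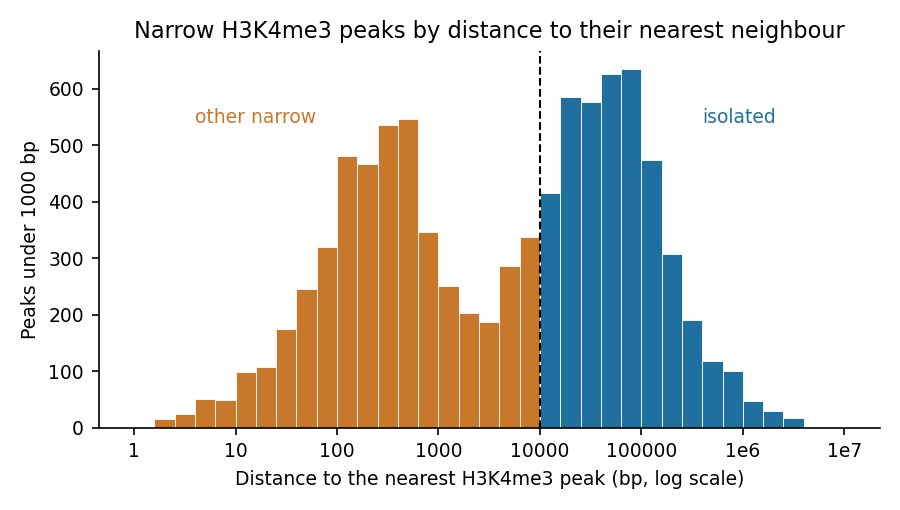
Histogram of the 8849 narrow H3K4me3 peaks by the distance to their nearest H3K4me3 peak, on a log axis in bp, with the rule's limit of 10000 bp as a dashed line. Isolated peaks (blue) had their highest bar, 635 peaks, between 63096 and 100000 bp, and the other narrow peaks (orange) theirs, 546 peaks, between 398 and 631 bp.

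Joining peaks no more than 10000 bp apart gave 6162 loci on the 18 chromosomes. Isolated narrow peaks made up 4126 of them, or 67.0%, and another 141 were isolated peaks of 1000 bp or more. Loci of 2 peaks numbered 1325, those of 3 peaks 343 and those of 4 or more peaks 227, with up to 15 peaks in a locus. An isolated narrow peak held a median of 40 tags over 356 bp, whereas a locus of 2 peaks held 95 tags in 800 bp of peaks and a locus of 4 or more held 253 tags. Thus the majority of separate H3K4me3 loci in the list consisted of a single narrow peak. Tags of a locus are summed over its peaks, so fewer tags than in loci of several peaks follow largely from the definition.

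The nearest neighbour of an isolated peak was itself isolated for 2823 of the 4126 (68.4%), a clustered narrow peak for 1199 (29.1%) and a peak of 1000 bp or more for 104 (2.52%). The first share is close to the 67.0% that isolated narrow peaks made up of all loci. The most remote member, chr1:113760818-113761106, was 5105 kb from its nearest neighbour and held 31 tags at a 9.99-fold enrichment. The next were chr6:21801836-21802162 at 4157 kb with 38 tags, and the pair chr4:70070886-70071281 and chr4:73897927-73898341, which were each other's nearest neighbours at 3827 kb and held 46 and 43 tags. The fifth, chr13:81922357-81922596, was 3407 kb from its neighbour and held 29 tags. All 5 had a fold enrichment between 7.69 and 9.99, so they lay above the median of 7.66 for isolated peaks.

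Values just inside and just outside the limits of the rule overlapped. The isolated peaks closest to the distance limit had their neighbour at 10023, 10042 and 10048 bp and held 87, 101 and 33 tags. The narrow peaks just outside it had theirs at 9989, 9989 and 9950 bp and held 70, 71 and 44 tags, and the first 2 of these are neighbours of each other on chromosome 3. The widest members measured 999, 999 and 998 bp and held 119, 148 and 147 tags. Isolated peaks just too wide for the rule measured 1000, 1001 and 1002 bp and held 128, 150 and 137 tags.

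In size and strength the isolated peaks were somewhat narrower and poorer in tags than the other narrow peaks. The median width was 356 bp (interquartile range 282 to 478 bp) for isolated and 386 bp (299 to 508 bp) for other narrow peaks, a ratio of 0.922. The median number of tags was 40 (31 to 57) against 45 (34 to 63), a ratio of 0.889. Peaks with fewer than 30 tags made up 21.0% of the isolated and 14.0% of the other narrow peaks. Tags per kb of peak, which takes width into account, had medians of 114 and 117, a ratio of 0.978. These measures come from the list that the rule used, so they are given as descriptions.

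Tags rose with width in both groups alike. Among peaks of 200 to 299 bp the median was 29 tags for the 1166 isolated and 29 for the 1097 other peaks. For widths of 400 to 499 bp it was 53 in both, and for widths of 700 to 999 bp it was 107 in both. The largest departure was below 200 bp, where 119 isolated peaks had a median of 20 tags and 89 other peaks one of 21. At matched width, therefore, the tag numbers of the groups lay within 5% of each other, and peaks under 300 bp were more frequent among the isolated ones (28.3% against 23.2% for 200 to 299 bp).

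**Figure D2:**
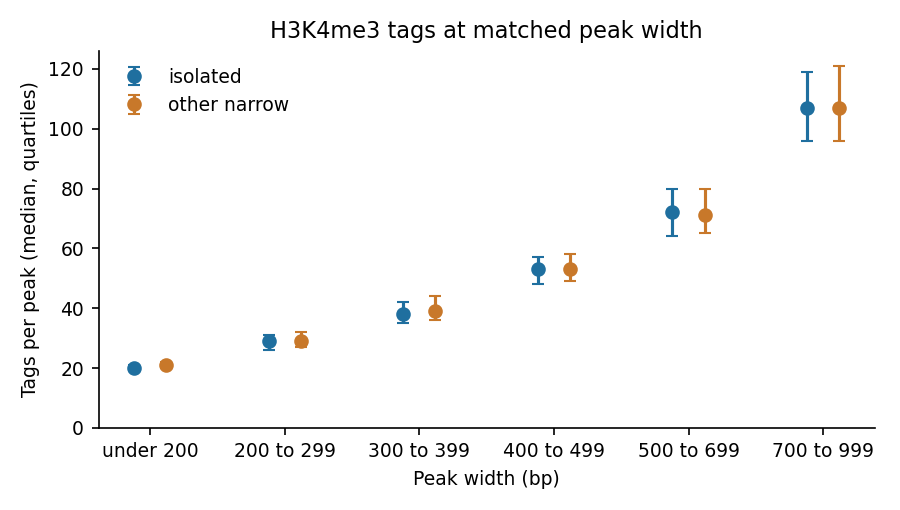
Median number of H3K4me3 tags per peak (points) with quartiles (bars) by peak width in bp, for isolated (blue) and other narrow (orange) peaks. In each width class the 2 medians nearly coincide, from 20 and 21 tags under 200 bp to 107 in both at 700 to 999 bp.

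Fold enrichment, the authors' ratio of a peak over the background that the caller expected, ran the other way. Its median was 7.66 (6.61 to 8.46) in isolated peaks and 7.13 (6.17 to 8.30) in the other narrow peaks, a ratio of 1.07. A value of at least 10 was reached by 232 isolated peaks (5.62%) and by 213 others (4.51%). The significance listed for a peak, 10 × −log10 of its p-value, was nearly equal, with medians of 76.1 and 76.8, and the median false discovery rate was 0.17% in both. Tags per kb divided by fold enrichment was used as a background index. It follows the background behind a peak only if the caller's ratio was taken over the whole peak, which is not known. No background value is listed for any peak. The index had a median of 15.1 in isolated and 16.4 in other narrow peaks. Isolated peaks thus had fewer tags and a slightly higher fold enrichment. The lower index is no separate trait, since it is computed from tags per kb and fold enrichment.

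Part of these differences came with the chromosomes on which the peaks lay. When the median of each chromosome was weighted by its number of isolated peaks, tags were 41.7 in isolated and 42.4 in other narrow peaks, a ratio of 0.982, and tags per kb had a ratio of 0.997. The ratio for fold enrichment became 1.02 and that for the background index 0.974. Median tags were lower in isolated peaks on 10 of the 18 chromosomes, higher on 6 and equal on 2. Averaged over chromosomes in this way, the groups were close to equal in tags and in tag density. Single chromosomes departed in both directions. Isolated and other narrow peaks held 31 and 35 tags on chromosome 13, and 47 and 44 on chromosome 17.

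Many fold enrichments repeated the same few values. The most common among isolated peaks were 7.69 (261 peaks), 8.46 (256), 9.22 (182), 9.99 (128) and 6.92 (117). These are whole multiples of a step of 0.769, found by a search for the step that fits most narrow peaks. Within a tolerance of 0.006, 1092 isolated peaks (26.5%, 95% Wilson interval 25.1 to 27.8%) and 625 other narrow peaks (13.2%, 12.3 to 14.2%) lay on such a multiple. The step was fitted to these same peaks, so the intervals cover counting error at this step only. No share expected without a step was computed. Peaks on the steps had a background index of 13.0 in both groups, against 16.2 for the isolated peaks and 16.9 for the other narrow peaks off the steps. Their fold enrichment was 8.46 in both groups, against 7.17 for isolated and 6.94 for other narrow peaks off the steps. By its definition the index is lower where fold enrichment is higher. The share varied widely between chromosomes, from 0.606% of the isolated peaks on chromosome 19 and 5.33% on chromosome 3 to 62.1% on chromosome 13, 64.4% on chromosome 7 and 69.6% of the 69 isolated peaks listed on chromosome 18. Weighted to the chromosomes of the isolated peaks, the share in other narrow peaks was 21.9%, and on 14 of the 18 chromosomes the isolated peaks had the higher share. A common background value for such peaks was not tested.

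The isolated share differed widely between chromosomes. It was 77.2% on chromosome 13 (132 isolated peaks), 72.2% on chromosome 14 and 71.5% on chromosome 4, and 69 of the 89 narrow peaks listed on chromosome 18 were isolated (77.5%). On chromosome 19 it was 29.8% (165 isolated peaks), on chromosome 3 36.3%, on chromosome 12 37.1% and on chromosome 11 38.1%. Chromosome 11 nevertheless had the most isolated peaks, 395, and the highest density, 3.25 per Mb up to its last listed peak, against 1.03 per Mb on chromosome 14. The share fell with the density of all H3K4me3 peaks (Spearman's rho = -0.928, Pearson's r = -0.874 across 18 chromosomes). The rule itself favours such a relation, since a peak is less likely to be isolated where peaks are dense. The chromosomes share 1 library, so these coefficients describe this list only.

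**Figure D3:**
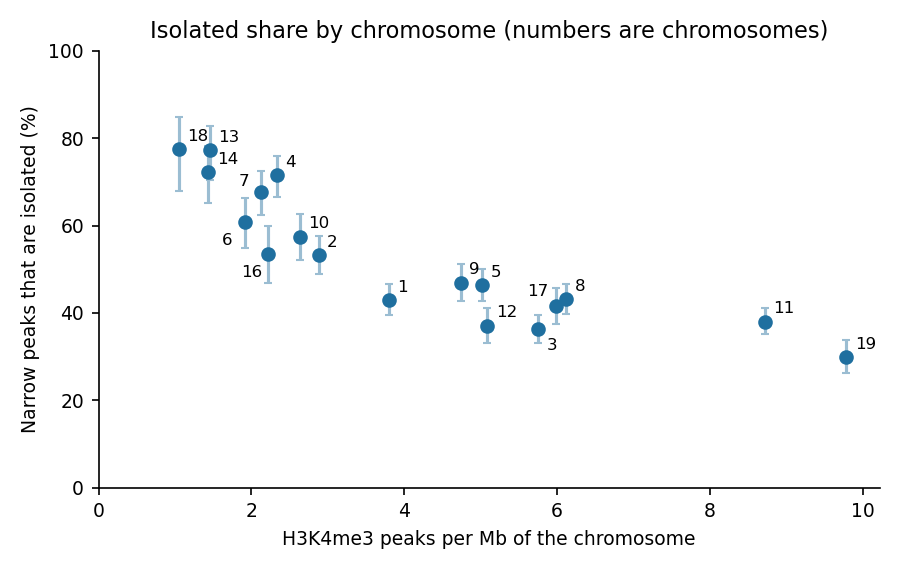
Percentage of narrow H3K4me3 peaks that are isolated (vertical axis, with 95% Wilson intervals) against the number of H3K4me3 peaks per Mb (horizontal axis), with 1 point per chromosome, labelled by its number. The share is 77.2% at 1.46 peaks per Mb on chromosome 13 and 29.8% at 9.78 peaks per Mb on chromosome 19.

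Isolated peaks on dense chromosomes also held more tags. Their median was 53 tags on chromosome 19, 52 on chromosome 12 and 50 on chromosome 3, but 31 on chromosomes 13 and 18 and 32 on chromosomes 7 and 14 (rho = 0.913 with peak density, across 18 chromosomes). The isolated peaks were also wider on chromosome 19, with a median of 438 bp against 305 bp on chromosome 13. Tags per kb differed less, with medians of 124 and 109 on these chromosomes. Fold enrichment ran from 6.57 on chromosome 19 to 8.38 on chromosome 13 (rho = -0.841). The background index of isolated peaks was 18.8 on chromosome 19 and 13.2 on chromosome 13. Tags were thus higher where peaks were dense, and fold enrichment was lower. The index is computed from tags per kb and fold enrichment, so it adds no separate trait.

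Finer than chromosomes, the share was uneven as well. In the 157 windows of 5 Mb with at least 20 narrow peaks it had a median of 40.7% (interquartile range 33.3 to 54.2%). The lowest value was 15.3%, on chromosome 17 between 80 and 85 Mb, where 9 of 59 narrow peaks were isolated. Between 25 and 30 Mb on chromosome 7, in contrast, all 24 narrow peaks were isolated. These 2 windows were picked for their values.

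Members more than 500 kb from any neighbour, 254 in number, held a median of 34 tags (95% interval of the median 32 to 36) at 7.94-fold enrichment. Those with a neighbour at 10 to 20 kb, 697 in number, held 43 tags (41 to 46) at 7.33-fold, and the 1226 with one at 20 to 50 kb held 44 tags (43 to 46) at 7.30-fold. Members at 100 to 500 kb held 36 tags (35 to 37) at 7.69-fold. The 915 members at 50 to 100 kb held 40 tags (38 to 42) at 7.69-fold. Tags were thus fewer and fold enrichment higher beyond 100 kb than below 50 kb. The intervals for 100 to 500 kb and beyond 500 kb overlapped. The median width was 376 bp at 10 to 20 kb and 386 bp at 20 to 50 kb. It was 349, 330.5 and 318.5 bp in the classes farther out, and tags were not matched for width. Distance and tags also differed between chromosomes, and the classes were not weighted by chromosome. Isolated peaks had a median distance of 188 kb and 31 tags on chromosome 13, against 33.7 kb and 53 tags on chromosome 19. All 5 classes come from the list that the rule used.

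The isolated peaks of highest fold enrichment were not all rich in tags. The highest, chr8:89147191-89147758, held 88 tags over 568 bp at 14.93-fold enrichment and overlapped a BNC1 peak. It was followed at 14.60-fold by chr6:4712344-4712595, with 28 tags over 252 bp, by chr7:119166247-119166917, with 95 tags, and by chr8:109207088-109207543, with 67 tags. The fifth, chr1:191745369-191746231, held 129 tags at 13.84-fold. The last 4 had their nearest BNC1 peak between 273 and 1316 kb away.

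Ranking by tags gave other peaks. The most tags, 275 over 784 bp, lay in chr6:47600813-47601596 at only 7.08-fold enrichment, so that its background index of 49.5 was the highest of all isolated peaks. The next, chr7:89919713-89920647, held 216 tags at 8.44-fold, yet its significance was 60.3 on the scale of 10 × −log10 p, below the median of isolated peaks. In chr9:36603972-36604942 (166 tags), chr3:151928344-151929297 (158 tags) and chr1:10222759-10223734 (150 tags) the significance was 261, 407 and 397. An index over 30 was found in 9 isolated (0.218%) and 21 other narrow peaks (0.445%).

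Whether BNC1 was bound close to isolated H3K4me3 peaks was examined with the 2386 BNC1 peaks on the 18 chromosomes, which had no part in the rule. Of the 4126 isolated peaks, 50 had a BNC1 peak within 1 kb, a share of 1.21% (95% Wilson interval 0.920 to 1.59%), against 0.995% of all H3K4me3 peaks on these chromosomes. Of the other narrow peaks 34 did, or 0.720% (0.516 to 1.004%), so that the ratio of the shares was 1.68 (95% interval 1.09 to 2.60). Within 10 kb the numbers were 152 isolated peaks, or 3.68% (3.15 to 4.30%), and 139 other narrow peaks, or 2.94% (2.50 to 3.46%), against 3.39% of all H3K4me3 peaks. The ratio there was 1.25, with an interval of 0.998 to 1.57 that includes 1. Between these limits, the shares within 2 kb were 1.58% and 1.12%, a ratio of 1.40 with an interval of 0.979 to 2.01 that includes 1. Within 5 kb they were 2.62% and 1.88%, a ratio of 1.39 (1.05 to 1.83). Within 50 kb they were 13.9% and 14.5%, a ratio of 0.954 (0.861 to 1.06). Peaks of 1000 bp or more had shares of 2.33% within 1 kb (7 of 300, 1.13 to 4.74%) and 6.33% within 10 kb (4.09 to 9.68%), the latter with an interval that overlaps that of the isolated peaks only narrowly. For most isolated peaks, then, no BNC1 peak was listed nearby. The intervals of the isolated shares within 1 and 10 kb include the shares of all H3K4me3 peaks, 0.995% and 3.39%. No share of all H3K4me3 peaks was computed within 2, 5 and 50 kb. The interval of the ratio to other narrow peaks lay above 1 within 1 and 5 kb. It included 1 within 2, 10 and 50 kb. These intervals treat clustered peaks as separate, although such peaks can share a BNC1 peak. Within 10 kb, 67 BNC1 peaks accounted for the 139 other narrow peaks. No count by locus was made within 5 kb.

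The higher share within 1 kb depended on the unit counted. Clustered peaks crowd together, and 25 BNC1 peaks accounted for the 34 other narrow peaks, whereas 50 accounted for the 50 isolated ones. When each of the 1894 loci that hold the other narrow peaks was counted once, 25 of them, or 1.32% (0.896 to 1.94%), had a BNC1 peak within 1 kb, and the ratio was 0.918 (0.570 to 1.48). When the rule was applied to H3K4me3 peaks of a significance of at least 100 only, 1937 narrow peaks were isolated and the ratio was 0.771 (0.367 to 1.62). With BNC1 peaks of a significance of at least 50 only, it was 3.15 (1.003 to 9.88). Its interval also included 1 without chromosome 3 (1.47, 0.932 to 2.32), without chromosome 10 (1.54, 0.968 to 2.45) and with an isolation distance of 5 kb (1.42, 0.918 to 2.20). The direction of the difference between isolated and clustered peaks in nearness to BNC1 therefore depended on the setting.

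Within the surroundings of isolated peaks, BNC1 peaks were concentrated at short range. Inside the peaks and up to 1 kb from their edges, 49 BNC1 midpoints lay in 9.90 Mb, a density of 4.95 per Mb (exact 95% Poisson interval 3.66 to 6.54). The density was 1.82 per Mb (1.02 to 2.998) between 1 and 2 kb and 1.78 (1.29 to 2.39) between 2 and 5 kb. From 5 to 10 kb it was 1.15 (0.841 to 1.53) and from 10 to 50 kb 1.39 (1.25 to 1.54). The innermost zone was thus 3.57 times as dense as the zone at 10 to 50 kb (95% interval 2.65 to 4.81). Around other narrow peaks the densities were 2.83 per Mb (1.79 to 4.24) within 1 kb and 1.41 (1.21 to 1.63) at 10 to 50 kb, a ratio of 2.01 (1.30 to 3.11). The 2 ratios have overlapping intervals, and their difference was not tested.

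**Figure D4:**
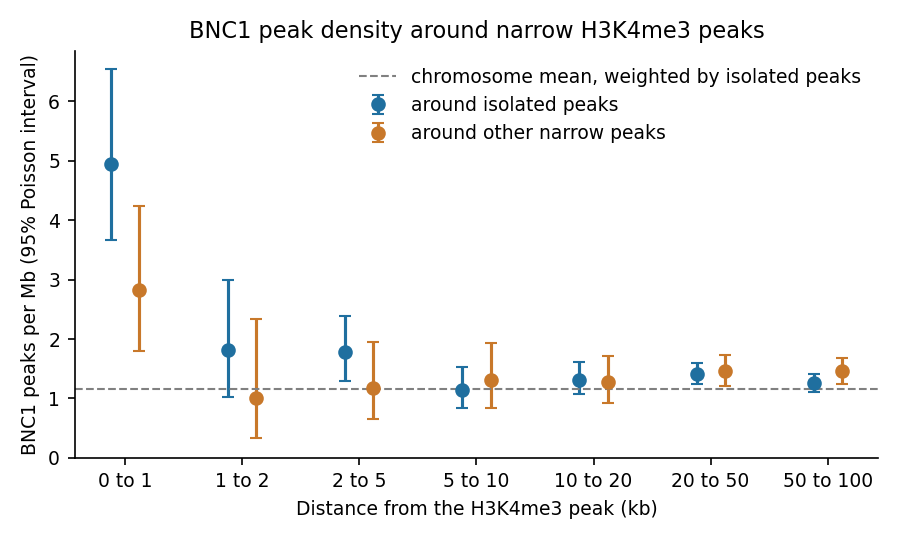
BNC1 peaks per Mb (points, with 95% Poisson intervals) by distance in kb from isolated (blue) and other narrow (orange) H3K4me3 peaks. The dashed line is the BNC1 density of whole chromosomes weighted by their isolated peaks, 1.15 per Mb. The density is 4.95 per Mb within 1 kb of isolated peaks and 1.15 to 1.42 per Mb from 5 to 100 kb.

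Across strengths of the H3K4me3 peak this nearness did not differ beyond counting error. The isolated peaks were divided into 4 groups of equal size by tags, and the shares with a BNC1 peak within 1 kb were 1.45, 1.07, 1.16 and 1.16% from the fewest to the most tags. In 4 such groups by fold enrichment they were 1.07, 0.679, 1.65 and 1.45%. All 8 Wilson intervals included 1.21%, the share of all isolated peaks. By distance to the H3K4me3 neighbour the shares were 0.717% at 10 to 20 kb, 1.14% at 20 to 50 kb, 1.53% at 50 to 100 kb, 1.45% at 100 to 500 kb and 0.787% beyond, also with overlapping intervals. Isolated peaks with a BNC1 peak within 1 kb held a median of 39.5 tags at 8.30-fold enrichment (95% interval of the median 7.41 to 8.46), and the others 40 tags at 7.63-fold (7.54 to 7.69).

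Between chromosomes the nearness to BNC1 varied more. On chromosome 10, 19 of 193 isolated peaks had a BNC1 peak within 10 kb, or 9.84% (Wilson interval 6.39 to 14.9%), and on chromosome 8, 25 of 337 did, or 7.42% (5.08 to 10.7%). These chromosomes are among the densest in BNC1 peaks, with 1.74 and 2.18 per Mb. Chromosome 9, with 2.03 per Mb, had only 7 of 247, or 2.83% (1.38 to 5.73%). On chromosome 18 it was 0 of the 69 isolated peaks listed, which allows a share of up to 4.35% by 3 counts of 69 and of up to 5.27% by the Wilson interval. Isolated peaks had the higher share on 11 chromosomes, the other narrow peaks on 6, and on chromosome 18 neither had any.

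**Figure D5:**
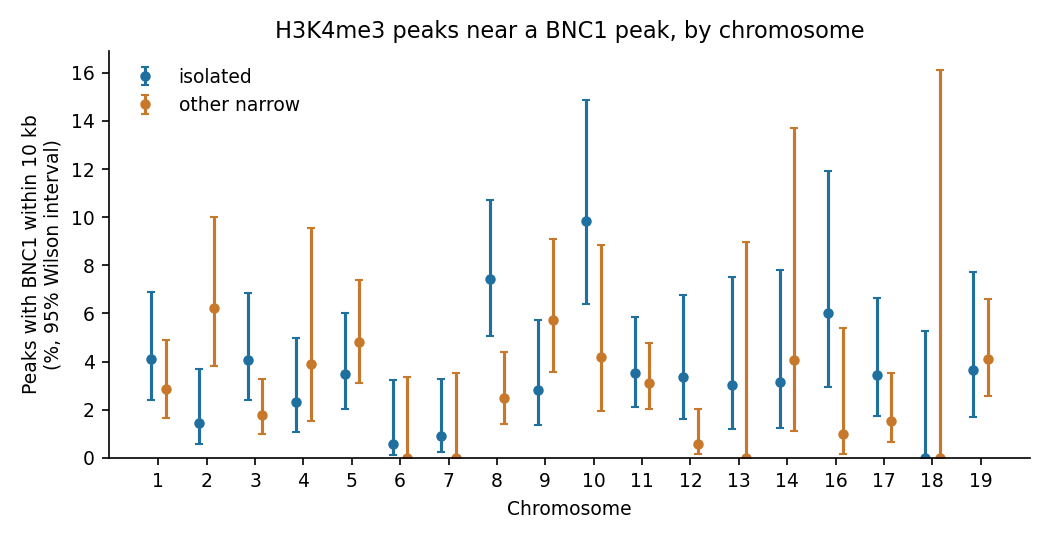
Percentage of isolated (blue) and other narrow (orange) H3K4me3 peaks with a BNC1 peak within 10 kb, for each of the 18 chromosomes, with 95% Wilson intervals. Isolated peaks reach 9.84% on chromosome 10 and 7.42% on chromosome 8, and the intervals of the groups do not overlap on chromosomes 2 and 8.

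The opposite order was widest on chromosomes 2 and 9. On chromosome 2, 15 of 241 other narrow peaks (6.22%) had BNC1 within 10 kb, against 4 of 275 isolated peaks (1.45%), and only 6 BNC1 peaks accounted for the 15. On chromosome 9, 16 of 279 other narrow peaks did (5.73%), from 9 BNC1 peaks. On chromosome 8, in contrast, 25 BNC1 peaks lay within 10 kb of isolated peaks and 6 within 10 kb of the others.

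Direct contact was rare. At least 1 bp was shared with a BNC1 peak by 16 isolated peaks, or 0.388% (Wilson interval 0.239 to 0.629%), against 0.35% of all H3K4me3 peaks on these chromosomes and 0.212% (0.115 to 0.389%) of the other narrow peaks. Of the peaks of 1000 bp or more, 6 of 300 did (2%, 0.920 to 4.29%), with an interval above that of the isolated peaks. These peaks also cover more bases, with a median width of 1194.5 bp against 356 bp, and the shares were not adjusted for width. Counted by locus, 9 of the 1894 loci with other narrow peaks did (0.475%), and the ratio of isolated peaks to these loci was 0.816 (0.361 to 1.84). Loci of 2 or more peaks held a median of 938 bp in peaks, and this ratio was not adjusted for the bases covered either. The 16 were spread over 9 chromosomes. They held 23 to 88 H3K4me3 tags with a median of 38.5, and their BNC1 partners held 8 to 12 tags with a median of 8.5. The BNC1 summit was a median of 61 bp from the H3K4me3 summit (1 to 339 bp), and 9 of the 16 lay within 100 bp. In 7 the whole BNC1 peak lay inside the H3K4me3 peak.

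Of these 16, the partner of highest BNC1 fold enrichment was at chr1:12634826-12635030, where 23 H3K4me3 tags at 12.15-fold coincided with 11 BNC1 tags at 18.41-fold, the summits being 13 bp apart. At chr5:3596263-3596721, 49 H3K4me3 tags met 11 BNC1 tags at 12.6-fold, but the BNC1 summit lay 264 bp towards higher coordinates. At chr8:19702430-19702527 the BNC1 partner covered nearly the same bases, from 19702431 to 19702528. This peak held 25 H3K4me3 tags in 98 bp, or 255 tags per kb, far above the median of 114, and its partner held 11 tags.

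The other named contacts had BNC1 peaks of 8 to 12 tags. The significance of these BNC1 peaks ran from 40.14 on chromosome 16 to 58.75 on chromosome 10. The peak chr11:100869892-100870555 held 73 tags and its BNC1 partner 9, with summits 28 bp apart. At chr10:80122137-80122450 the numbers were 39 and 11 tags. At chr16:27389105-27389353, whose nearest H3K4me3 neighbour was 2329 kb away, 24 H3K4me3 tags met 8 BNC1 tags, and the summits were 15 bp apart. The peak of highest H3K4me3 fold enrichment, chr8:89147191-89147758, had a BNC1 partner of 8 tags at 9.79-fold, with summits 33 bp apart. At chr12:80397682-80398176, 53 tags met 8. The last were at chr5:90652659-90652914 (29 and 12 tags) and at chr2:167603665-167603925 (26 and 9 tags).

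BNC1 peaks close to isolated peaks were much like BNC1 peaks elsewhere. The 50 within 1 kb had a median of 9 tags and 8.37-fold enrichment, and the 2158 farther than 10 kb from every H3K4me3 peak had 8 tags and also 8.37-fold. More than 10 tags were held by 15 of the 154 BNC1 peaks within 10 kb of an isolated peak (9.74%, Wilson interval 5.99 to 15.4%) and by 273 of the 2158 remote ones (12.7%, 11.3 to 14.1%). Among the 74 that were within 10 kb of a clustered or wide H3K4me3 peak only, 20 did (27.0%, 18.2 to 38.1%). The tag-rich BNC1 peaks near H3K4me3 were thus more frequent beside clustered or wide peaks than beside isolated ones, with intervals that do not overlap. A significance of at least 50 was listed for 17.5% of the BNC1 peaks near isolated peaks and 13.5% of those near clustered or wide peaks only, with overlapping intervals, so the order held for tags and not for significance. The 16 BNC1 peaks in direct contact with isolated peaks included 5 with more than 10 tags (31.3%, 14.2 to 55.6%).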

How the data were processed

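Peak lists of 1 H3K4me3 and 1 BNC1 ChIP-seq library of mouse ovary were used, and groups were taken from the antibody named in the labels. The input library has no list here and was not analysed. The submitters' processing notes name Bowtie2, MACS2 2.1.0 and mm9, without settings, although the column names are those of an earlier MACS version. Which control was used for the lists is not given in the sources used here. The labels describe sonicated nuclei. The study's methods describe nuclease digestion followed by sonication, an input and an IgG control, and name another BNC1 antibody than the labels.

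Per the file headers, tags are the count of fragments in a peak, not normalized. The deposited significance is a score, 10 × −log10 of the p-value. Fold enrichment, as deposited, is a ratio on a linear scale over the expected background. The authors' file gives the false discovery rate as percent. A peak is listed only above the caller's limits, so weaker sites are missing from both lists.

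Peaks were selected and compared with pandas 2.3.3, numpy 2.4.6 and scipy 1.17.1 under Python 3.11.15 (plots: matplotlib 3.10.9). Distances run from edge to edge (start minus end), and a neighbour of any width counted. Shares have 95% Wilson intervals, medians order-statistic intervals, ratios of shares log-normal intervals and densities Poisson intervals. BNC1 densities used midpoints and the distance to the nearest peak of the group. The functions were tested on simulated data. Named peaks were the 5 highest in fold enrichment, tags and distance, the 10 contacts of highest BNC1 fold enrichment and the 3 on each side of each limit. The members and comparisons were chosen with earlier results of these data known. Windows and fold steps were added after seeing the data.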

Additional observations from a re-analysis of the deposited data

How the results depend on the processing

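Of 81 recomputed values of 9 results, 63 stayed inside the interval of the main value (for the count, within 1.5 times), 16 moved outside it and 2 crossed 1 from a ratio whose interval had excluded it. Of these, 10 (the lowest and highest values of 5 BNC1 results with 1 chromosome left out) were chosen after seeing the data. The isolated share of narrow peaks, 46.6%, was 52.1% at a distance of 5 kb, 38.8% at 20 kb and 48.1% below 500 bp of width. With H3K4me3 peaks of a significance of at least 100 only, 1937 narrow peaks were isolated, the share was 74.0%, the ratio of tags 0.945, the BNC1 ratios 0.771 within 1 kb and 0.926 within 10 kb (both now below 1, the second from an interval that already included 1), and the BNC1 density within 1 kb was 2.53 times that of the flank. With BNC1 peaks of a significance of at least 50 only, the shares were 0.267% and 0.654%, the ratios 3.15 and 1.63 and the density ratio 5.50. The ratio of tags was 0.947 below 500 bp, and weighting by chromosome gave 0.982 for tags and 0.997 for tags per kb. Counting clustered loci once, without adjusting for the larger area of a locus, turned the ratio within 1 kb to 0.918 and left that within 10 kb at 1.04. Without 1 chromosome at a time, the ratio within 1 kb ran from 1.47 (without chromosome 3) to 1.95 (without chromosome 5), that within 10 kb from 1.12 (without chromosome 8) to 1.39 (without chromosome 2), and the density ratio from 3.21 (without chromosome 10) to 3.88 (without chromosome 11). The causes of these shifts were not tested. No paired analysis was possible because each antibody has 1 library. BNC1 peaks near isolated peaks held a median of 9 tags, so single BNC1 peaks rest on few reads.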

Other observations

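The same rule applied to chromosome 15, which it leaves out, gave 182 isolated narrow peaks, 34.1% of its narrow peaks. They held a median of 47 tags over 404.5 bp at 7.11-fold enrichment, with a background index of 17.2. The 351 other narrow peaks there held 69 tags at 5.74-fold, so on this chromosome the groups were farther apart than on the other chromosomes pooled, where the medians were 40 and 45 tags. A BNC1 peak lay within 10 kb of 7 of the 182, or 3.85% (Wilson interval 1.88 to 7.73%), close to the 3.68% of the isolated peaks elsewhere. Chromosome X had 2 H3K4me3 peaks, both narrow and isolated.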
